A study of Mus musculus with 15 samples.

Results

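Immunoglobulin variable segments are the gene pieces that encode most of the antigen-binding part of an antibody. They were taken as every gene of the count table whose name starts with Ighv, Igkv or Iglv and whose expected counts summed to at least 150 over all libraries. This gave 150 of the 57010 genes in the table. A further 196 variable segment genes lay below that sum, of which 113 had 0 counts in every library. Of the 150 segments, 70 encode heavy chains, 77 kappa light chains and 3 lambda light chains. Just inside the limit were Igkv8-34 with 150.02 counts and Ighv9-1 with 163. Just outside it were Igkv3-9 with 142, of which 125 came from 1 silica library (silica 1), and Ighv8-2 with 135, of which 129 came from that same library. The summed counts chose the segments, so their levels below are a description.

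The series holds 15 RNA-seq libraries made from lungs of C57BL/J mice. The control group (n = 4, numbered 1, 2, 4 and 7 in the labels) received physiological saline. The DMSO group (n = 4, numbers 1, 4, 6 and 7) received dimethyl sulfoxide, a polar solvent. The silica group (n = 3, numbers 1, 2 and 7) was given silica particles suspended for nasal delivery, and the silica_DMSO group (n = 4, numbers 2, 4, 5 and 6) was given silica and then DMSO a day later. Lungs were taken at day 30. The labels name no allele, age or number of animals per library. P-values therefore measure the spread between these libraries, which may be technical.

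Each B cell joins 1 variable segment to a joining segment, with a diversity segment between them in the heavy chain, and so fixes the antigen specificity of its antibody. The assembled variable region is then transcribed together with a constant region, which sets the isotype of the heavy chain or marks the light chain as kappa or lambda. Plasma cells, the antibody-secreting descendants of B cells, carry far more of this RNA per cell than resting B cells. A clone of plasma cells therefore adds 1 heavy and 1 light segment to a tissue's RNA in large amounts. In bulk tissue, fewer cells of a type and less RNA per cell cannot be told apart.

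The segments are close copies of one another, which bears on how reads are divided between them. All 150 identifiers matched a transcript of GENCODE M21 (GRCm38), and in all 150 the deposited gene length equalled that transcript's length, from 338 to 501 bases. The heavy segments lie on chromosome 12, the kappa segments on chromosome 6 and the lambda segments on chromosome 16. All but 1 are annotated as functional variable genes. The exception is Igkv3-11, annotated as a pseudogene. Identity of a segment to its nearest relative among the 150 was 94.8% at the median, at least 95% for 71 segments and below 80% for 9. The pairs printed here hold leading segments of the libraries beside a close relative. Each sequence is the coding part of the V exon up to its base 300, 5′ to 3′ in the sense of the gene, and capitals mark the bases at which the members of a pair differ. The bases cut from the 3′ end are the same in both.

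Iglv1 (chr16:19085017-19085500, minus strand) led more libraries than any other segment, and Iglv2 (chr16:19260401-19260859, minus strand) differs from it at 9 bases, an identity of 97.0%.
Iglv1: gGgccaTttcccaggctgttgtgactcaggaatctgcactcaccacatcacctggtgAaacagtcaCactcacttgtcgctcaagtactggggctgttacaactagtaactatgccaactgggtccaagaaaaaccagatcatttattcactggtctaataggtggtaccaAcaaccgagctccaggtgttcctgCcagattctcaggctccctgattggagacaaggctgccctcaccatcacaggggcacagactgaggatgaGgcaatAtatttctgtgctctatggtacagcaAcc
Iglv2: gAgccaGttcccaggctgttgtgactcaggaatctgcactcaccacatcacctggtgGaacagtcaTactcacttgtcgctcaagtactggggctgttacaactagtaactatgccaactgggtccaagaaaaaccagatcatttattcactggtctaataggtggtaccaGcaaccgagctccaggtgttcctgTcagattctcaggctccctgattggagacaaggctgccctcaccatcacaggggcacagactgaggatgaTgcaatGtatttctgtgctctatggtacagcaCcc

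Igkv1-110 (chr6:68270485-68271267, plus strand) and Igkv1-117 (chr6:68121046-68121827, plus strand) were the leading kappa segments by mean share and differ at 10 bases.
Igkv1-110: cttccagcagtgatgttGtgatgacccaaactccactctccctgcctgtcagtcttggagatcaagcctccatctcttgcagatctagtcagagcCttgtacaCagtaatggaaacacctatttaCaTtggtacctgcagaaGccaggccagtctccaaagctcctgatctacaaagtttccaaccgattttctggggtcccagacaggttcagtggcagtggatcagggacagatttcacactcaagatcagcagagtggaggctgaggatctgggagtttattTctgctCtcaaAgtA
Igkv1-117: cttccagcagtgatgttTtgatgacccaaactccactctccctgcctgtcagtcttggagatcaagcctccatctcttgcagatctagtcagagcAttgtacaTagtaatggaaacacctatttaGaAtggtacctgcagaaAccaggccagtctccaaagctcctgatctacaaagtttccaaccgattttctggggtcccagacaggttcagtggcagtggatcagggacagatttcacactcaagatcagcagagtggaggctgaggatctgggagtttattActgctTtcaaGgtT

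Igkv12-44 (chr6:69814631-69815154, minus strand) and Igkv12-41 (chr6:69858420-69858884, minus strand) differ at 13 bases, and both were high in 1 control library.
Igkv12-44: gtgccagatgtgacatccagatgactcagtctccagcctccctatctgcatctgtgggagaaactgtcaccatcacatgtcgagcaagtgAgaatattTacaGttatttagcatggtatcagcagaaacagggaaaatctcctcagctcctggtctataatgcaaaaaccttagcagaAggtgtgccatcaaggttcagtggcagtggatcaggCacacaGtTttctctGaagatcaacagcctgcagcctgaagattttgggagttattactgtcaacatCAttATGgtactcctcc
Igkv12-41: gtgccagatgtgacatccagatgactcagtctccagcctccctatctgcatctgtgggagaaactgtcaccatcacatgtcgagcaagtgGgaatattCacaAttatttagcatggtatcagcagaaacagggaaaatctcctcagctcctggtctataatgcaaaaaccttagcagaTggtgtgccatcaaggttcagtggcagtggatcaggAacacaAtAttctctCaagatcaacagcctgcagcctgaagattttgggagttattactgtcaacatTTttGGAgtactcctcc

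Ighv1-72 (chr12:115757984-115758461, minus strand) and Ighv1-64 (chr12:115507545-115508031, minus strand), heavy segments of the largest family, differ at 12 bases.
Ighv1-72: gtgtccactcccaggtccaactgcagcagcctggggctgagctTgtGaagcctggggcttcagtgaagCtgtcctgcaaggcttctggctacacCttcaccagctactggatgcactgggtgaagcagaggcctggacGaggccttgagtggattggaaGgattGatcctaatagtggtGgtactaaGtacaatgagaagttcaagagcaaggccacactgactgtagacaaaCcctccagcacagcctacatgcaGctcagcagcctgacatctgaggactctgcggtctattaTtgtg
Ighv1-64: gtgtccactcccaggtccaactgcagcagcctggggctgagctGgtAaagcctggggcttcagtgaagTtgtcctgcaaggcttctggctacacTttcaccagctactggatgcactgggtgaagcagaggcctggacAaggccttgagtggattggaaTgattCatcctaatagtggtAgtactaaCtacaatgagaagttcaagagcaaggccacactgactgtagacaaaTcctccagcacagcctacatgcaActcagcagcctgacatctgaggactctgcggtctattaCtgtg

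Because of such identity, a read from a stretch shared by 2 segments can be split between them, and every value of a single segment is uncertain to that extent. Of the 150 segments' values in a library, 13.3% to 62.0% were not whole numbers, against 7.52% to 10.03% of all genes' values. A gene without counts in a library has a whole value, and the segments were chosen for their summed counts. The contrast with all genes therefore does not measure how far reads were split between segments. The genome carries unmutated segments, while antibody genes of activated B cells can be mutated. How mutated reads were assigned was not tested.

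Some facts of the libraries touch the results. Expected counts summed to 17434649 to 20829960 per library. The libraries DMSO 7, silica_DMSO 4 and silica_DMSO 6 held thymus RNA. Rag1, the recombinase of developing lymphocytes, was at 3876, 2743 and 2541 CPM (counts scaled to the library total) there and at 0.224 CPM or less in the other 12. Sftpc, the surfactant protein gene that defines alveolar type 2 cells of the lung, was at 5090, 789 and 108 CPM in those 3 libraries and between 13860 and 39510 CPM elsewhere. In 5 other libraries (control 1, DMSO 1, DMSO 4, silica 7 and silica_DMSO 5) genes longer than 3000 bases took 11.5% to 24.2% of counts, against 34.0% to 44.9% in the remaining 7.

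The share of a library taken by all segments together varied widely within each group. In the control libraries 1, 2, 4 and 7 the segments took 0.00866%, 0.122%, 0.0343% and 0.0958% of counts, a median of 0.0651%. In the DMSO libraries 1, 4, 6 and 7 the shares were 0.311%, 1.09%, 0.0238% and 0.0391%, with a median of 0.175%. DMSO 4 held 45.9 times the share of DMSO 6. The silica libraries 1, 2 and 7 stood at 0.896%, 0.0543% and 0.0571%, and the silica_DMSO libraries 2, 4, 5 and 6 at 0.164%, 0.0679%, 0.1201% and 0.0545%. The medians were 0.0571% for silica and 0.0940% for silica_DMSO. The ranges of all 4 groups overlapped, and the silica_DMSO group had the narrowest, with a highest value 3.005 times its lowest. No test is given for these sums, since the members were chosen on them.

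Counting error is small beside this spread. The 95% Wilson interval of the share was 0.00824% to 0.00908% in control 1, the library with the fewest segment counts (1642), and 1.09% to 1.10% in DMSO 4, with the most (213423). Intervals here cover counting error only. DMSO 4 and silica 1 together held 62.9% of all segment counts of the series, 36.0% and 26.9% of them respectively. In TPM, which divide each count by the gene's length, silica 1 stood above DMSO 4, with 11.2% of the library against 5.22%. DMSO 4 is a library with few counts in long genes (12.4%) and silica 1 is not. What part that takes in the order of these libraries was not tested.

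**Figure D1:**
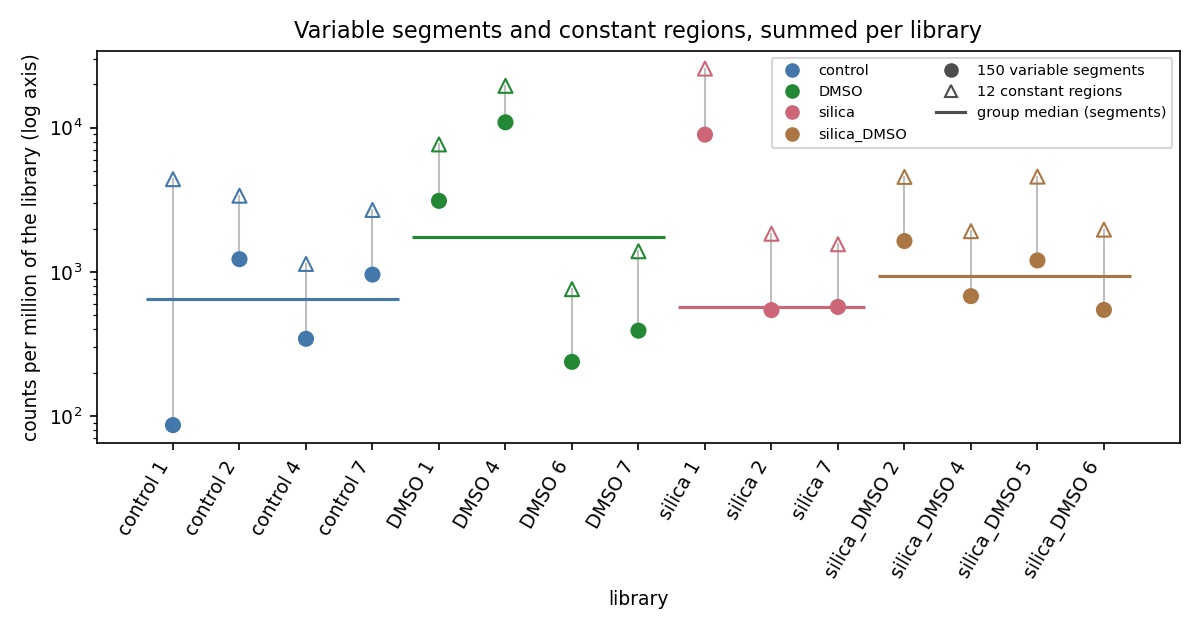
Summed CPM of the 150 variable segments (filled circles) and of 12 constant region genes (open triangles) in each library, on a log axis, with the group medians of the segments as lines. DMSO 4 and silica 1 stand above the other libraries on both measures, and in control 1 the circle lies far below its triangle.

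Constant regions, the other part of the same transcripts, were high in the same 2 libraries. The 12 constant region genes summed to 25730 CPM in silica 1 and 19530 CPM in DMSO 4, and to between 759 and 7662 CPM in the other 13 libraries. Segment counts per constant region count lay between 0.262 and 0.558 in 14 libraries. In control 1 the ratio was 0.0197. Its constant regions stood at 4399 CPM, the highest of the control group, while its segments were the lowest. The gap was present in each chain: per constant region count control 1 had 0.00536 heavy segment counts, against 0.0354 to 0.204 in the other libraries. For kappa it had 0.0313 against 0.395 to 0.844, and for lambda 0.0964 against 0.428 to 2.40. Control 1 thus had little variable sequence counted for the constant sequence it held. Among the other libraries silica_DMSO 5 was lowest for heavy (0.0354) and kappa (0.395) but not for lambda. Both belong to the 5 libraries with few counts in long genes, whose remaining 3 members did not lie below the other libraries in any chain.

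The number of segments in use was highest in libraries with many segment counts, with silica_DMSO 5 an exception. A segment is called used at 10 or more counts in a library. By this measure control 1, 2, 4 and 7 used 32, 122, 90 and 108 segments, and DMSO 1, 4, 6 and 7 used 132, 142, 87 and 93. Silica 1, 2 and 7 used 149, 94 and 114, and silica_DMSO 2, 4, 5 and 6 used 126, 109, 96 and 113. Silica 1 used all members but 1, and control 1 stood below every other library. Silica_DMSO 5 used 96 with 24723 segment counts, fewer than control 2 (122) with 22632 and silica_DMSO 6 (113) with 10166.

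Counted from 1 count on, 99 segments were seen in control 1 and 137 to 149 in the other 14 libraries. With every library reduced to 1642 segment counts by calculation, 99, 118, 125 and 113 segments would be seen at 1 count or more in control 1, 2, 4 and 7. The DMSO libraries would show 109, 111, 133 and 129, and the silica libraries 129, 120 and 124. In silica_DMSO 2, 4, 5 and 6 the numbers were 117, 121, 95.7 and 129. The lowest value belonged to silica_DMSO 5 and the next to control 1, and the ranges of the 4 groups overlapped.

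Segments differed in the number of libraries that used them. At 10 or more counts, 22 segments were used in all 15 libraries, 77 in at least 12, 17 in at most 5 and 3 in a single library. In 57 segments 1 library held over 50% of the segment's summed counts, which was silica 1 for 30 of them and DMSO 4 for 18. Without these 2 libraries, 23 of the 150 segments would sum to less than 150. Without the silica group 15 segments would sum to less than 150, without the DMSO group 6, without control 4 and without silica_DMSO 3. These numbers overlap, since a segment near the limit, such as Igkv8-34 with 150.02 counts, falls below it whichever group is left out. A segment that needed 1 high group to meet the limit was chosen partly for differing between groups. The counts and medians over segments given for the comparisons are therefore a description and support nothing.

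Dominance by single segments was measured as a segment's share of its library's segment counts. The top segment took 14.9% in control 1 (Igkv12-44), 8.77% in control 2 (Igkv16-104), 11.4% in control 4 (Igkv4-55) and 10.4% in control 7 (Igkv8-30). Each control library thus had a different leader, all of them kappa segments. In all 4 DMSO libraries Iglv1 led, with 6.68%, 11.4%, 7.38% and 9.52% in DMSO 1, 4, 6 and 7. Its share in control 1, 2, 4 and 7 was 7.06%, 3.77%, 3.39% and 9.95%, so the control and DMSO ranges overlapped.

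Iglv1 also led silica 1 (5.74%) and silica 7 (9.82%), while Igkv1-117 led silica 2 (11.5%). In the silica_DMSO group the leaders were Ighv1-34 in library 2 (7.82%), Igkv10-96 in library 4 (10.1%), and Iglv1 in libraries 5 (20.3%) and 6 (11.1%). Ighv1-34 was the only heavy segment to lead a library. In all, 8 segments led a library, and Iglv1 led 8 of the 15. The 95% Wilson interval of the top share was widest in control 1, from 13.2% to 16.7%, and in silica_DMSO 5 it ran from 19.83% to 20.84%. Measured in TPM, 13 of the 15 libraries kept the same leader. The exceptions were control 1 and silica 7.

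The 10 leading segments of a library took 32.6% to 63.8% of its segment counts, lowest in DMSO 7 and highest in control 1, with silica_DMSO 5 next at 62.3%. Evenness is given here as the effective number of segments, the inverse of the chance that 2 counts drawn from a library come from the same segment. It was 17.3, 30.8, 29.6 and 26.6 in control 1, 2, 4 and 7, and 36.5, 26.6, 42.6 and 43.5 in DMSO 1, 4, 6 and 7. It was 51.1, 29.0 and 27.3 in silica 1, 2 and 7, and 34.9, 33.2, 13.5 and 33.4 in silica_DMSO 2, 4, 5 and 6. The most even library was silica 1, 1 of the 2 with the most segment RNA, and the least even was silica_DMSO 5, with control 1 next. DMSO 4 had more segment RNA than silica 1 by counts (1.09% against 0.896%) and less by TPM (5.22% against 11.2%). Its effective number was 26.6. The groups overlapped, and within the silica group the library with much segment RNA was the evenest.

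**Figure D2:**
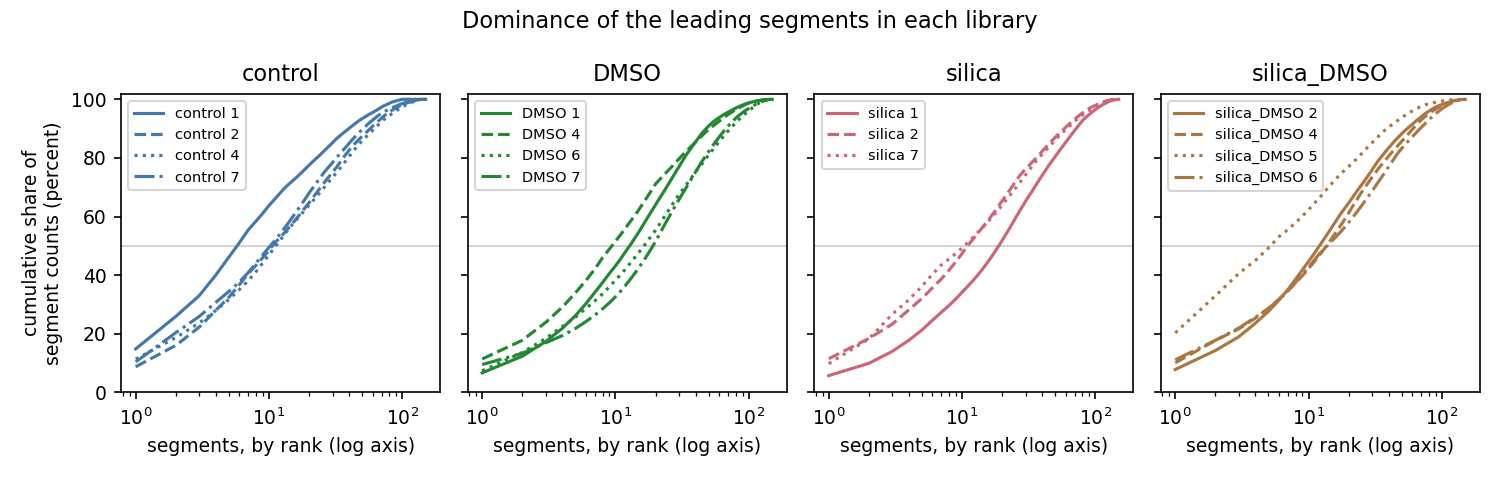
Cumulative share of segment counts against the rank of the segment (log axis), 1 panel per group and 1 line per library. Lines of control 1 and silica_DMSO 5 rise fastest, with 6 segments holding 50% of counts, against 10 to 20 segments in the other 13 libraries.

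The 12 segments with the highest mean share over libraries held 39.3% of segment counts on average. They were Iglv1, 7 kappa segments and 4 heavy segments. Iglv1, which in mice encodes the variable part of the most used lambda chain, had a mean of 7.88% and ran from 3.33% in silica_DMSO 4 to 20.3% in silica_DMSO 5. Iglv2 took 0.101% to 1.45% and Iglv3 0.0355% to 0.299%, so that Iglv1 stood above both in every library.

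Igkv1-110 followed with a mean of 4.87%, from 1.94% in silica 1 to 12.6% in silica_DMSO 5. Igkv1-117 averaged 4.44%, from 1.28% in control 2 to 11.5% in silica 2. Its share was above that of its close relative Igkv1-110 in silica 2 but below it in silica 7, where Igkv1-110 took 8.44% and Igkv1-117 3.19%.

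The other leading kappa segments reached high shares in 1 or a few libraries each. Igkv10-96 (mean 3.03%) took 10.1% in silica_DMSO 4 and 1.24% to 4.80% elsewhere. Igkv8-30 (mean 2.85%) took 10.4% in control 7 and 0.380% in control 4. Igkv14-111 (mean 2.83%) was highest in control 2 (6.24%) and DMSO 4 (6.12%), and Igkv6-23 (mean 2.21%) was the most even of the group, between 1.20% and 4.39%.

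Igkv12-44 (mean 2.56%) took 14.9% in control 1 and 6.40% in DMSO 4, against 0.506% to 2.43% in the other 13 libraries. Igkv12-41, chosen after its values were seen, took 11.1% in control 1 and 1.67% in DMSO 4, and 0.550% or less elsewhere. Both sequences are printed above. The pair thus stood high together in control 1, the library with the fewest segment counts, and second in DMSO 4.

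Among the heavy segments, Ighv1-19 (mean 2.70%) ran from 0.243% in control 1 to 6.49% in silica_DMSO 2, and Ighv1-34 (mean 2.13%) from 0.183% in control 1 to 7.82% in silica_DMSO 2. Ighv1-72 (mean 1.99%) was at 5.78%, 4.99% and 5.68% in control 2, control 4 and DMSO 1. Ighv1-64 (mean 1.78%) was at 7.27% in control 2, 4.19% in silica 1 and 4.12% in silica 7. It was listed at 0 in control 1, where a count of 0 allows up to 0.183% of segment counts. High libraries of these heavy segments came from every group.

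**Figure D3:**
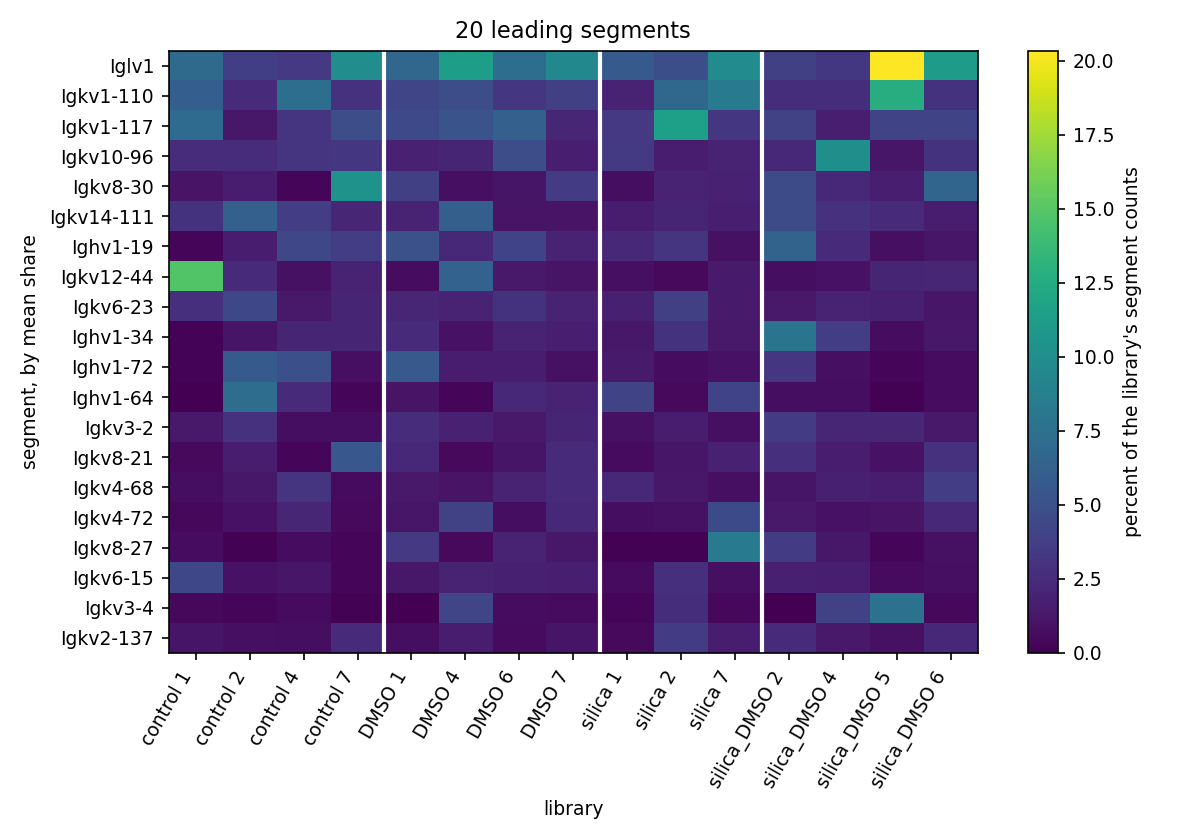
Percent of a library's segment counts taken by each of the 20 leading segments, with libraries in columns and groups divided by white lines. Iglv1 is the first segment of 8 libraries, and single bright cells mark Igkv12-44 in control 1 (14.9%) and Iglv1 in silica_DMSO 5 (20.3%).

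By chain, kappa segments took 56.0% to 78.6% of segment counts, heavy segments 6.25% to 38.8% and lambda segments 3.69% to 21.4%. The heavy share was 13.3%, 32.7%, 32.7% and 28.7% in control 1, 2, 4 and 7, and 31.9%, 17.9%, 28.8% and 28.2% in DMSO 1, 4, 6 and 7. It was 38.1%, 29.1% and 21.6% in silica 1, 2 and 7, and 38.8%, 34.7%, 6.25% and 21.2% in silica_DMSO 2, 4, 5 and 6. The low libraries, control 1, DMSO 4 and silica_DMSO 5, came from 3 groups, and all 3 belong to the 5 with few counts in long genes. The other members of those 5, DMSO 1 and silica 7, lay at 31.9% and 21.6%, within the range of the rest. What part this takes was not tested.

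Lambda segments and lambda constant regions did not put the libraries in the same order. The lambda segments took 21.4% of segment counts in silica_DMSO 5, against 3.69% to 12.02% in the other 14 libraries. Of light chain constant region counts, the lambda genes took 15.3% in DMSO 6, 10.66% in silica_DMSO 5 and 3.22% to 10.08% elsewhere, with 5.58% in DMSO 4. In CPM, Iglv1 was highest in DMSO 4 (1244), silica 1 (514) and silica_DMSO 5 (244). Iglc1, a constant region that Iglv1 can be joined to, was at 342, 64.2 and 149 CPM in these libraries and at 4.13 to 87.8 CPM elsewhere.

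**Figure D4:**
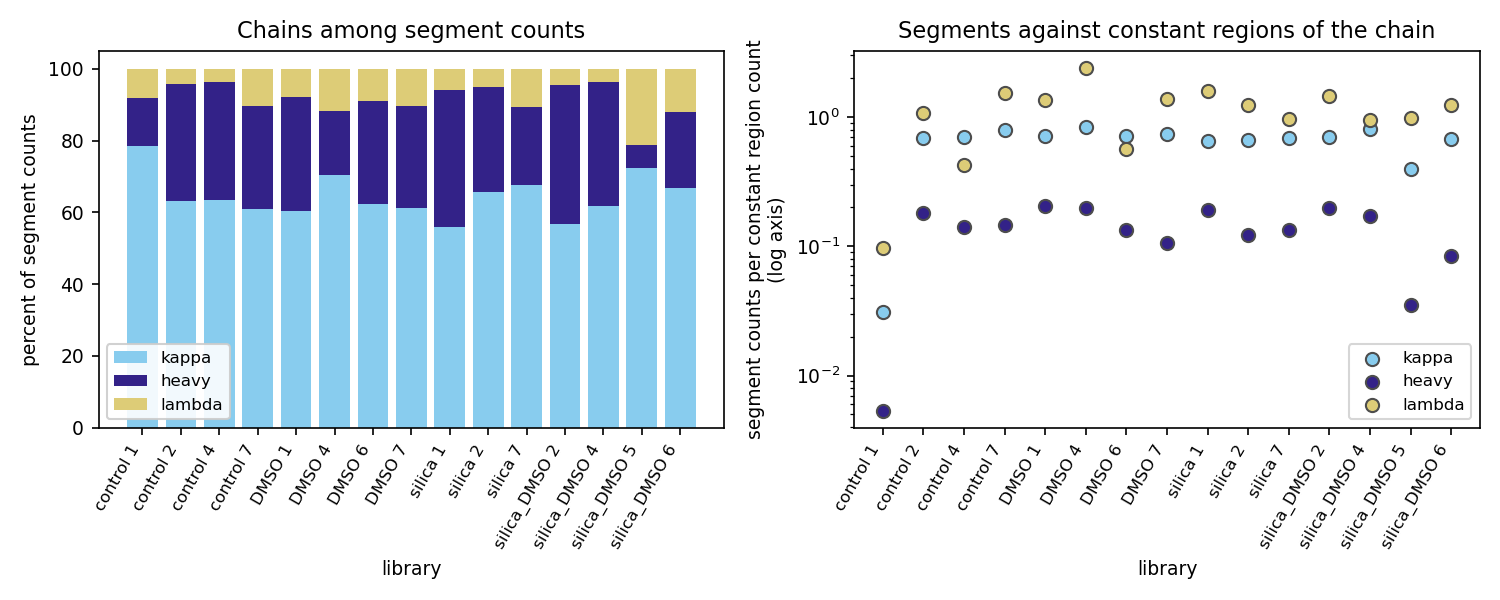
Left, percent of segment counts from kappa, heavy and lambda segments in each library. Right, segment counts per count of the same chain's constant regions (log axis), where control 1 lies below the other libraries in every chain and silica_DMSO 5 is next lowest for heavy and kappa.

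The 150 segments fall into 32 families by name, 13 heavy, 16 kappa and 3 lambda. Ighv1, with 38 members the largest mouse heavy family here, took 18.8% of segment counts on average, from 4.58% in silica_DMSO 5 to 31.6% in silica_DMSO 2. Igkv1 (7 members) averaged 11.4%, Igkv4 (18 members) 10.4% and Igkv8 (9 members) 7.87%. Some families were high in a single library. Igkv12 took 26.6% in control 1 and 1.21% to 8.73% elsewhere, and Ighv7 took 10.8% in silica_DMSO 4 and at most 2.12% elsewhere.

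Taken over all groups, segment usage overlapped to a like extent in libraries of the same group and of different groups, a description with no test. The overlap of usage between 2 libraries was taken as the sum over segments of the smaller of their shares. Over 21 pairs within a group it ranged from 41.2% to 70.8% with a median of 57.4%. Over 84 pairs between groups it ranged from 39.4% to 72.5% with a median of 56.3%. Single groups differed, with a median within the group of 46.85% in control, 62.76% in DMSO, 58.81% in silica and 55.77% in silica_DMSO. Of a library's 10 leading segments, a median of 4 were shared in both kinds of pair. Pairs with control 1 had a median overlap of 46.2% and pairs with silica_DMSO 5 of 48.5%, the lowest of the 15 libraries.

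Isotypes of the heavy chain differed between libraries as well. Of heavy constant region counts, Ighm, the IgM constant region, took 10.51%, 19.24%, 31.93% and 24.99% in control 1, 2, 4 and 7, and 20.3%, 10.9%, 51.9% and 70.7% in DMSO 1, 4, 6 and 7. Silica 1, 2 and 7 had 6.94%, 38.0% and 35.3%, and silica_DMSO 2, 4, 5 and 6 had 17.3%, 72.3%, 9.80% and 66.3%. The 3 highest were the libraries with thymus RNA. IgG genes took 71.6% in silica 1, where Ighg2c alone reached 5916 CPM, and Igha, the IgA constant region, took 75.9% in control 1 and 71.7% in silica_DMSO 5. The least even libraries by segments were thus the 2 with the largest Igha share.

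Plasma cell genes were high in the same libraries only in part. Of the 10 genes of the plasma cell list, 4 were highest in DMSO 4, 4 in silica 1 and 2 elsewhere. Jchain, which links IgM and IgA into polymers, was at 5013 CPM in DMSO 4, 3233 in silica 1 and 2484 in DMSO 1. In the other 12 libraries Jchain was at 86.8 to 1232 CPM. Mzb1 and Xbp1, of the same list, were at 207.8 and 529.4 CPM in DMSO 4 and at 152.3 and 426.9 CPM in silica 1. Elsewhere they reached at most 57.55 and 295.8 CPM. Sdc1, a surface proteoglycan that epithelial cells also carry, was at 155 CPM in DMSO 4, below all 4 control libraries (159 to 306 CPM). Prdm1, a transcription factor of plasma cells, was at 24.5 CPM in silica 1 but at 2.76 CPM in DMSO 4. Only silica_DMSO 6 was lower than DMSO 4 (2.25 CPM). DMSO 4 is among the libraries with few counts in long genes (12.4%). What part that takes in its low Sdc1 and Prdm1 was not tested.

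The groups were then compared with edgeR's quasi-likelihood test over all genes. A filter on low counts kept 147 of the 150 segments among 17879 genes. Levels are given as CPM of the library, and fold changes are log2 values, each with a standard error (SE).

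Silica against control asks what the particles changed. Of the segments tested, 141 had a fold change above 0 and 6 below, with a median of 2.37, and the median over all genes tested was 0. No segment passed the edgeR test at an adjusted p under 0.05 (Benjamini-Hochberg over all genes), and of all genes 0% passed. The smallest adjusted p of a segment was 0.862. At an unadjusted p under 0.05 there were 46 segments (31.3%), against 2.92% of all genes. DESeq2 called 4 segments, 3.60% of those with a p-value, against 0.248% of all genes. Limma-voom with quality weights called 7 (4.76%), against 8.32% of all genes. The median SE was 1.54 for segments and 0.62 for all genes, so single segments varied more between libraries than a typical gene. The direction rested on silica 1. Without it the median fold change was -0.01, and 6 segments had an unadjusted p under 0.05. Without the 3 libraries with thymus RNA the median was 2.30, and without the 5 with few counts in long genes 2.45.

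In the silica libraries 1, 2 and 7 Igkv14-126 stood at 16.2, 1.20 and 0.528 CPM, and in control 1, 2, 4 and 7 at 0, 0.433, 0.366 and 0.156 CPM. Its groups did not overlap, and its fold change was 4.55 (SE 1.09). It was 1 of the 3 segments of smallest p, all with an edgeR adjusted p of at least 0.862. Igkv4-91 was at 131, 0.688 and 2.16 CPM in silica and at 0.366 to 0.570 CPM in control, a fold change of 6.35 (SE 1.55). Ighv2-2 was at 84.5, 0.287 and 0.864 CPM in silica and at 0 to 0.704 CPM in control, a fold change of 6.22 (SE 1.68), and its groups overlapped. In each of the 3 the level of silica 1 was far above that of silica 2 and silica 7.

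Every silica library lay above every control library in 11 segments, 7.48% of those tested, against 5.83% of all genes. None lay below in every library, against 4.67% of all genes. Among the 11 was Igkv1-110, at 174, 37.5 and 48.2 CPM in silica 1, 2 and 7 and at 5.24, 30.1, 25.2 and 27.4 CPM in control 1, 2, 4 and 7. Its fold change of 1.99 (SE 1.39) did not pass the test. The others were Ighv11-2 and 9 kappa segments, among them Igkv3-1, Igkv3-4, Igkv3-5 and Igkv3-12 of the Igkv3 family, which has 8 members here. The remaining Igkv3 members overlapped between the groups. So did the family's share of segment counts, 2.89% to 6.80% in silica and 1.42% to 3.86% in control. These names were listed after their values were seen.

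DMSO against control asks what the solvent did without silica. Here 138 segments had a fold change above 0 and 9 below, with a median of 2.91 against 0.14 for all genes. None passed the edgeR test, nor did any other gene (0%), and the smallest adjusted p was 0.649. An unadjusted p under 0.05 was reached by 53 segments (36.1%), against 7.13% of all genes. DESeq2 called 11 (9.91%), against 0.355% of all genes. Limma-voom called 64 (43.5%), of which 63 were higher in DMSO, against 39.2% of all genes. Without DMSO 4 the median fold change was 0.89 and 12 segments had an unadjusted p under 0.05. Without the 5 libraries with few counts in long genes, DMSO 1, DMSO 4 and control 1 among them, the median was -1.21, so the direction turned. That fit left only DMSO 6 and DMSO 7 in the DMSO group, and DMSO 7 held thymus RNA. Without the 3 libraries with thymus RNA the median was 3.2.

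Igkv3-5 stood at 79.6, 104, 2.62 and 7.37 CPM in DMSO 1, 4, 6 and 7 and at 0.158, 3.62, 1.81 and 1.62 CPM in control 1, 2, 4 and 7. DMSO 1 and DMSO 4 were high and DMSO 6 lay within the control range. The fold change was 5.36 (SE 1.37). Igkv5-45 was at 0.982, 13.7, 0.411 and 1.12 CPM in DMSO and at 0 to 0.313 CPM in control (5.62, SE 1.46), with no overlap. Igkv3-1 was at 36.3, 4.04, 0.103 and 0.338 CPM in DMSO and at 0.105 to 0.325 CPM in control (5.90, SE 1.60), with overlap. All DMSO libraries lay above all control libraries in 7 segments (4.76%, against 2.07% of all genes) and below in none (against 2.09%).

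Silica_DMSO was compared with silica alone to see what the solvent changed once the particles were given. Of the segments, 24 had a fold change above 0 and 123 below, with a median of -1.52 against 0.05 for all genes. None passed the edgeR test, with 0% of all genes passing and a smallest adjusted p of 0.708. There were 25 segments (17.0%) at an unadjusted p under 0.05, against 5.91% of all genes. DESeq2 called 1 segment (0.901%), against 0.378% of all genes. Limma-voom called 27 (18.4%), 12 higher and 15 lower, against 68.8% of all genes. Without silica 1 the median fold change was 1.04, so the direction turned, and 3 segments had an unadjusted p under 0.05. Without the 3 libraries with thymus RNA the median was -1.08, and without the 5 with few counts in long genes -2.37.

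The segments named here were picked by smallest p, and silica 1 was high in each. Nothing is drawn from their order. Ighv2-2 stood at 0.252, 0.467, 0.146 and 0.857 CPM in silica_DMSO 2, 4, 5 and 6 against the silica values above, a fold change of -5.83 (SE 1.65). Ighv1-69 was at 38.7, 0.459 and 0.192 CPM in silica 1, 2 and 7 and at 0.1 to 0.623 CPM in silica_DMSO. It had 691 counts in silica 1 and 149.18 in the other 14 libraries, so it met the limit of 150 only through silica 1, and its difference is given with no test. Ighv1-39 was at 18.4, 0.574 and 0.816 CPM in silica and at 0.194 to 0.322 CPM in silica_DMSO (-4.40, SE 1.44). Ighv1-39 did not overlap between the groups, whereas Ighv2-2 and Ighv1-69 did. With Ighv1-39, only Ighv3-6 and Igkv6-17 lay lower in every silica_DMSO library, 3 segments or 2.04% against 1.39% of all genes. None lay higher in every library, against 0.783% of all genes.

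Against DMSO, which asks what silica added in treated mice, silica_DMSO had 14 segments with a fold change above 0 and 133 below. The median was -1.88, with 0 for all genes. No segment and 0% of all genes passed the edgeR test, and the smallest adjusted p was 0.998. An unadjusted p under 0.05 was reached by 26 segments (17.7%), against 1.71% of all genes. DESeq2 called 0, against 0.00564% of all genes. Limma-voom called 71 (48.3%), of which 68 were lower, against 69.5% of all genes. Without DMSO 4 the median fold change was 0.02 and 6 segments had an unadjusted p under 0.05. Without the 5 libraries with few counts in long genes the median turned to 1.37, with only DMSO 6 and DMSO 7 left in the DMSO group. Without the 3 libraries with thymus RNA it was -2.12.

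Igkv1-88 was at 2.38, 52.8, 0.309 and 0.281 CPM in DMSO 1, 4, 6 and 7 and at 0.252, 0.571, 0.291 and 1.23 CPM in silica_DMSO 2, 4, 5 and 6 (-5.22, SE 1.68). Ighv1-78 was at 10.4, 261, 0.566 and 1.07 CPM in DMSO and at 0.0490 to 3.70 CPM in silica_DMSO (-6.04, SE 2.03). Ighv1-5 was at 8.01, 60.04, 1.75 and 0.788 CPM in DMSO and at 0.146 to 3.12 CPM in silica_DMSO (-4.13, SE 1.40). In all 3 the level was highest in DMSO 4 and the groups overlapped. Ighv1-52, at 0.485 to 0.956 CPM in silica_DMSO and at 0.153 to 0.411 CPM in DMSO, was the only segment higher in every library (0.680%, against 0.218% of all genes), and none was lower in every library (against 0.364%).

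**Figure D5:**
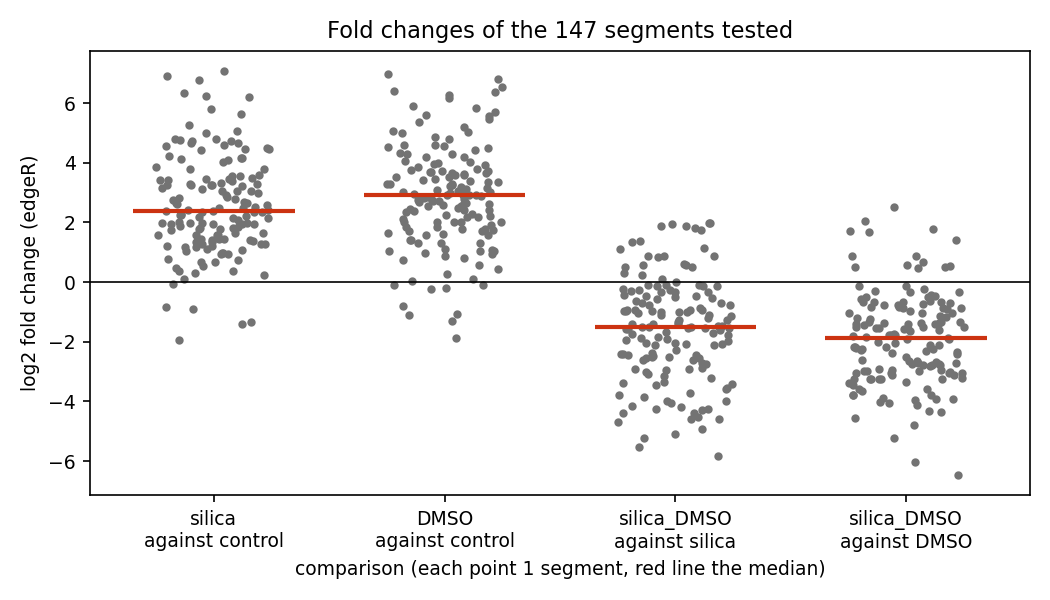
Log2 fold changes (edgeR) of the 147 segments tested in each of 4 comparisons, 1 point per segment, with the median as a red line. Medians lie at 2.37, 2.91, -1.52 and -1.88, and no point passed the test.

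The 4 comparisons share libraries in pairs: silica 1 enters 2 of them and DMSO 4 the other 2, so their medians are not independent. The medians of the constant regions had the same signs. Of 12 tested, 11 had a fold change above 0 for silica against control (median 1.72) and 11 for DMSO against control (median 2.29), while 3 did for silica_DMSO against silica (median -1.35) and 0 for silica_DMSO against DMSO (median -1.49). Of the plasma cell list, 9, 8, 1 and 2 of 10 lay above 0 in these comparisons, and of the B cell list 8, 5, 0 and 0 of 12. Of all 17879 genes tested, 8931, 10456, 9416 and 8875 lay above 0. Silica_DMSO 4 and 6 held thymus RNA, with Sftpc at 789 and 108 CPM. What part that takes in the B cell counts was not tested. No member of the plasma cell or B cell list passed the edgeR test in any of the 4. The interaction of silica and DMSO, which tests whether the effect of one differs with the other, was not passed by any segment or other gene, and 74 segments (50.3%) had an unadjusted p under 0.05, against 1.66% of all genes. How far this rests on silica 1 and DMSO 4 was not tested.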

How the data were processed

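RNA-seq tables of 15 lung libraries in 4 groups were used, and groups and numbers follow the labels. Expected counts per gene were deposited in 1 table, estimated by the authors with a program not given in the sources used here, and, as an other value from the authors, the length of each gene. A separate deposited table gives the authors' TPM. The authors' 8 columns of group means were not used. Bowtie 0.12.2 and the build mm8 are listed in the submitters' processing notes, whereas all 150 segments matched GENCODE M21 (GRCm38) by identifier and length. Sequences and positions are from M21. The labels' extraction notes speak of retinas, while the tissue given is lung.

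Expected counts were rounded, with a shift of no more than 53.9 counts in any library's sum. In R 4.3.3, edgeR 4.0.16 (filterByExpr, smallest count 10 and total 15, TMM scaling, robust quasi-likelihood F test) was run over all 15 libraries in a fit of 4 group means, with Benjamini-Hochberg adjustment over 17879 genes and calls at an adjusted p under 0.05. Groups were called not overlapping on TMM-scaled CPM. Shares, numbers used (at least 10 counts), analytic rarefaction, effective numbers and overlaps were computed in Python 3.11.15 with pandas 2.3.3, and figures drawn with matplotlib 3.10.9. The tests were tried on simulated data.

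Alternatives were DESeq2 1.42.0 (its size factors in edgeR, and its own test), limma 3.58.1 (voom with quality weights, and limma-trend on log2(TPM + 1)), other filters, a fit of only the groups compared, a block for the label number, TPM shares, other count minimums, and leaving out each library. Fits without the 5 libraries with few counts in long genes, and shares without those or without the 3 with thymus RNA, were chosen after seeing the data. Counting intervals do not cover the spread between libraries.

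Segments named were the 12 of highest mean share, the leader of each library, the 3 of smallest p per comparison where none was called, and those beside the limit of 150. The segments and gene lists were chosen with earlier results of these data known. Lists of germinal centre, early B cell, thymocyte, T cell and alveolar type 2 genes gave no edgeR call in any comparison. As edgeR called 0% of all genes, this does not show that the lists were alike between groups. Median fold changes of the thymocyte list, in the order of the comparisons above, were 0.17, 7.8, 9.5 and 1.36. For the early B cell list, which shares Rag1 and Dntt, they were 0, 10.48, 11.57 and 0.74. Joining segments, 11 genes, held at most 0.108 CPM. Some genes of the lists are not reported here.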

Additional observations from a re-analysis of the deposited data

Results flagged for a closer look

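Within groups of 4 libraries, the highest or lowest value was set against the others by Dixon's test for the leading 12 segments and the measures of dominance, and 9 of 57 sets held a library apart from the rest at the 95% level. Chance sets apart about 1 in 20 where the measure is chosen independently. These segments were chosen by a mean share, which 1 high library raises, so the number is not read against that rate. Single segments were high in 6 of them. Igkv12-44 took 14.9% in control 1 and 6.40% in DMSO 4, and Igkv8-30 took 10.4% in control 7. Ighv1-72 took 5.68% in DMSO 1, Igkv10-96 took 4.80% in DMSO 6 and Igkv1-110 took 12.6% in silica_DMSO 5. A low value stood apart in the other 3. Ighv1-64 was at 0.103% in silica_DMSO 5 and Igkv1-117 at 1.69% in silica_DMSO 4, and the effective number of segments was 13.5 in silica_DMSO 5 against 33.2 to 34.9 in the other silica_DMSO libraries. The libraries set apart came from all groups of 4.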

How the results depend on the processing

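Calls depended on the test. By edgeR 0 segments were called in every comparison, also with each library left out in turn (lowest 0, highest 0), under DESeq2 size factors, other filters, only the groups compared, and without the 3 or the 5 libraries that stood apart, and by limma-trend on TPM. DESeq2 called 4 for silica against control, 11 for DMSO against control and 1 for silica_DMSO against silica, and gave no p-value for 36 of 147 segments. Limma-voom called 7, 64, 27 and, for silica_DMSO against DMSO, 71, among 8.32% to 69.5% of all genes. The cause was not tested. The number of segments at an unadjusted edgeR p under 0.05 moved by over 1.5 times with several libraries. For silica against control it was 6 without silica 1, 26 without control 1 and 24 without control 4. For DMSO against control it was 12 without DMSO 4, 29 and 32 without control 1 and control 4, and 80 without DMSO 6. For silica_DMSO against silica it was 3 and 38 without silica 1 and silica 2, and 11 and 12 without silica_DMSO 4 and 6. For silica_DMSO against DMSO it was 6, 44 and 46 without DMSO 4, 6 and 7, and 11 and 9 without silica_DMSO 4 and 6. With the label number as a replicate block 0 were called in each comparison. Deviations of same-numbered libraries from their group means had correlations from -0.487 to 0.266 (13 pairs, median -0.111). Pairs with different numbers ran from -0.761 to 0.804 (71 pairs, median 0.033). Beside so wide a spread the check cannot exclude pairing. The numbers were not taken as pairs.

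By TPM the median total share was 0.683% in control, 1.27% in DMSO, 0.548% in silica and 0.630% in silica_DMSO. At a minimum of 1 count the median number used was 143.5, 146.5, 143 and 144.5 in that order, and at 50 counts 46.5, 67, 51 and 57. With each library left out, the median total share ran from 0.0343% to 0.0958% in control, 0.0391% to 0.311% in DMSO, 0.0557% to 0.476% in silica and 0.0679% to 0.1201% in silica_DMSO. The median number used ran from 90 to 108, 93 to 132, 104 to 131.5 and 109 to 113, and the top share from 10.4% to 11.4%, 7.38% to 9.52%, 7.78% to 10.7% and 10.1% to 11.1%. The fold change of Ighv1-69 for silica_DMSO against silica lay between -5.68 and 0.00 with each library left out, the last without silica 1. That of Ighv2-2 turned to 0.17 by limma-voom. Without the 5 libraries with few counts in long genes, Igkv1-88, Ighv1-78 and Ighv1-5 turned to 1.19, 1.61 and 0.80 for silica_DMSO against DMSO. The DMSO group then held only DMSO 6 and DMSO 7.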
